A study of Homo sapiens with 12 samples.

Results

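BT-549 and MDA-MB-231 are established human breast cancer lines, both labelled as triple-negative breast cancer, and their expression without an active drug was compared gene by gene. The 3 BT-549 arrays and the 3 MDA-MB-231 arrays came from cells kept in the vehicle DMSO for 48 h. These are 6 of the 12 arrays of the study, whose purpose was the effect of mTOR inhibition on DNA repair. The other 6, with 3 of each line, came from cells given 10 uM everolimus, an inhibitor of the kinase mTOR, for 48 h. They were used here for the shared estimate of spread, the floor and the choice of probe, and to measure the line difference again on other arrays. The labels name no further allele, transgene or agent, and each line comes from 1 tumour, so that what belongs to a subtype and what belongs to these 2 tumours cannot be told apart. The labels do not say whether the 3 arrays of a group came from separate cultures, so the p-values measure the spread between these arrays, which may be technical.

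Triple-negative tumours lack both steroid hormone receptors, for oestrogen and for progesterone, and HER2 amplification, and cell lines of this class range from epithelial to mesenchymal states. Mesenchymal cells hold themselves together loosely, secrete collagens and contract through actin and myosin, while epithelial cells keep keratins, laminins and tight junctions. Growth signalling through RAS and ERK, the homeobox code of body position and the cell cycle inhibitors at the CDKN2A locus are other features in which breast lines are known to differ.

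Expression was read as the log2 signal of Illumina bead array probes, with 1 probe for each gene. Of 20046 genes with a probe of their own, 11764 lay above the background floor of 6.77 on at least 3 of the 12 arrays and were tested, and 8282 were not tested. Differences are BT-549 minus MDA-MB-231 in log2 units, and a gene was called when its adjusted p from limma, with Benjamini-Hochberg adjustment over all genes tested, was under 0.05. Errors of means are SDs over 3 arrays. Where no probe of a gene lay above the floor on any array of one line, the fold is given as at least the value reached when the floor stands in for the dim values. Where 1 or 2 arrays of a line were above the floor, the fold is taken from the measured values, although the others lie at background. Examples with 1 array of 3 are KRT19, IL11 and SPINT2 in BT-549 and CBS in MDA-MB-231. A gene that passed the floor in 1 line alone can be called in that direction only. Background was left in the deposited signal, so folds of dim genes are understated. Fewer cells of a type and less RNA per cell cannot be told apart in bulk RNA.

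Over the tested genes, r between replicate arrays was 0.927 to 0.995, and r between arrays of different lines under DMSO was 0.855 to 0.899. Between 9840 and 10258 tested genes lay above the floor on each DMSO array. The second BT-549 array stood apart in one respect. In BT-549, 416 tested genes spanned at least 1 log2 unit over the 3 arrays, and array 2 lay between arrays 1 and 3 in 416 of them (100%). In MDA-MB-231, 394 genes spanned as much, and array 2 lay between the others in 135 of them (34.3%). On the linear scale a mixture of 45% of BT-549 array 1 and 55% of array 3 gave array 2 with a residual SD of 0.115 log2 units over these genes. The smallest residual SD of such a mixture was 0.389 in MDA-MB-231 under DMSO, 0.317 in BT-549 under everolimus and 0.236 in MDA-MB-231 under everolimus. The labels list it as a replicate of its own, and how it came to lie there was not tested. Counts of calls that moved by over 1.5 times without it are also given without it. BT-549 everolimus array 1 deviated most from its group mean, with an SD of 0.393 over the tested genes, against 0.0822 to 0.271 on the other arrays. In its group 1200 genes spanned at least 1 log2 unit, against 445 in MDA-MB-231 under everolimus. That array enters the shared spread, the everolimus calls and the interaction terms. Without it 4400 genes were called under DMSO. Why it deviated was not tested.

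**Figure D1:**
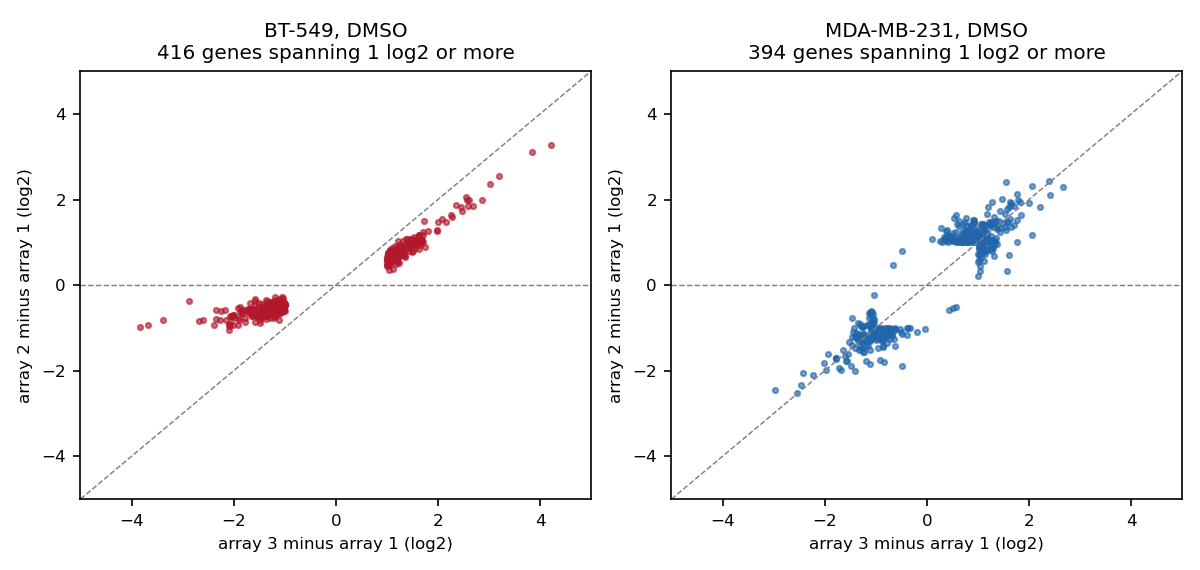
Array 2 minus array 1 against array 3 minus array 1 (log2) for genes whose 3 arrays span at least 1 log2 unit, in BT-549 (left, 416 genes) and MDA-MB-231 (right, 394 genes) under DMSO; each point is a gene. Points between the dashed lines have array 2 between the other arrays, which holds for 416 of 416 genes in BT-549 and 135 of 394 in MDA-MB-231.

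The lines differed widely. Limma called 3576 of the 11764 genes (30.4%), with 1757 higher in BT-549 (14.9%) and 1819 lower (15.5%). Of these, 1146 differed at least 2-fold (9.74% of the genes tested), with 593 higher (5.04%) and 553 lower (4.70%) in BT-549. The groups of 3 arrays did not overlap for 5635 genes (47.9%). The median difference over all genes was -0.02 and the median size of a difference 0.29 log2 units, beside a median standard error of 0.155. At least 8-fold differences were called for 58 genes higher and 44 lower in BT-549. Without BT-549 array 2, limma called 2547 of 11660 genes (21.8%), and 2534 of them were among the 3576.

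A part of the differences ran from signal to background. Of the called genes, 301 were above the floor in BT-549 and on no MDA-MB-231 array, and 319 were the reverse. On the everolimus arrays, which the DMSO difference does not use, limma called 4168 genes between the lines (35.4%). Of the 3576 genes called under DMSO, 2393 were called again in the same direction (66.9%; 57.4% of the everolimus calls) and 22 in the opposite direction, and 3372 had the same sign (94.3%). The line difference itself differed between everolimus and DMSO for 75 genes (0.638%), 40 of them among the 3576, and with the replicate number as a block for 305 genes, which hold all 75. Other probes of the called genes gave the same sign in 1176 of 1288 cases (91.3%). The size often differed between probes, and the values given are those of each gene's brightest probe. Of the genes described below, the other probe gave a smaller difference in the same direction for ADGRE5 (-1.81), SPANXB1 (-2.41), CD24 (1.35), PLAGL1 (0.93), SQLE (1.21), COL4A5 (0.93), CCND2 (-1.33), CDKN2B (0.62), SMAD7 (0.33), SPRY4 (-0.46), CD59 (-0.33), HOXC6 (0.31), CNN2 (0.26), NBN (0.31), ETV5 (-0.57), MERTK (-0.47) and PHRF1 (-0.30). The 2 other probes of CD68 (-0.43 and -0.59), MGST1 (-1.03 and -0.23) and TGM2 (-1.76 and -0.51) did too, and those of TPM2 gave 5.73 and 1.99. Smaller values also came from the other probe of BCL2L1 (-1.14), TAGLN (3.81), F3 (-3.19), COL1A2 (2.08), TGFA (-1.72) and SOD2 (1.15). Those of BUB3 gave -1.21, -1.16 and -0.35. These genes are examples and not a full list. Where another probe of a called gene gave nearly 0 or the opposite sign, it is given beside the gene.

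**Figure D2:**
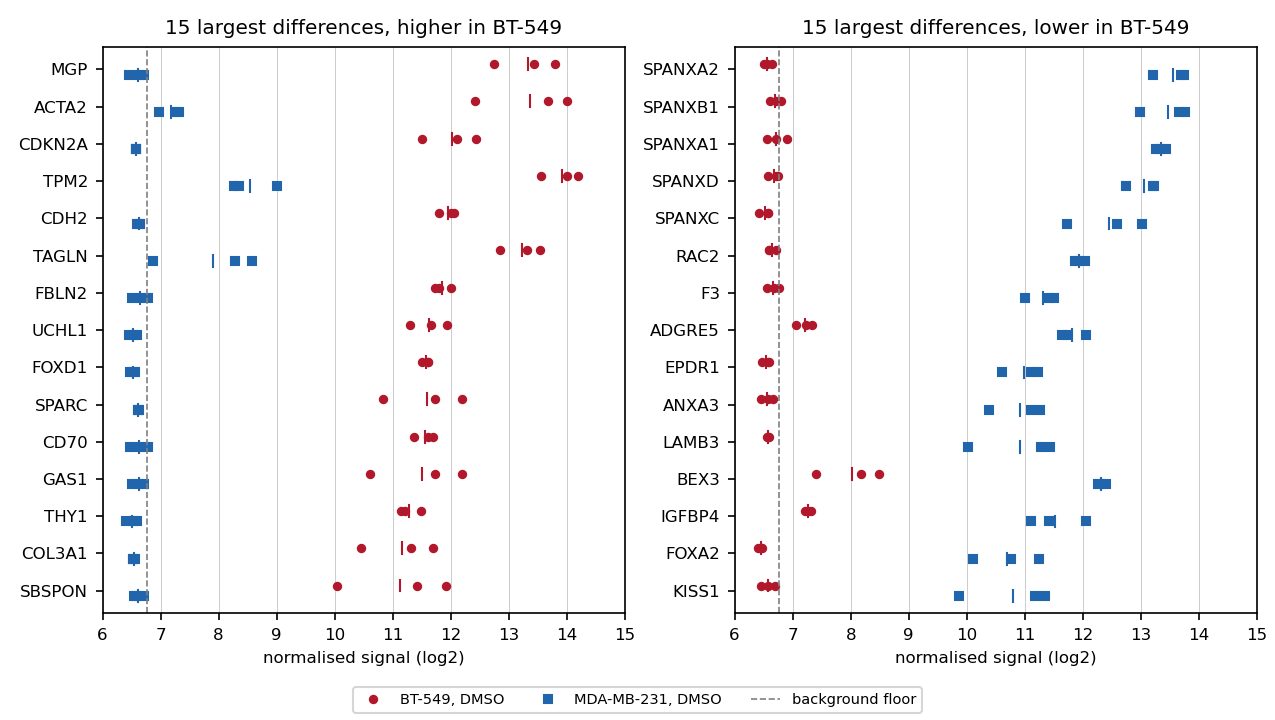
Log2 signal on each DMSO array for the 15 called genes furthest above (left) and the 15 furthest below (right) in BT-549, among genes whose groups do not overlap; circles are BT-549 arrays, squares MDA-MB-231 arrays, short bars the means of 3 arrays, and the dashed line the background floor of 6.77. In most of these genes the lower line sits at the floor while the higher one lies between 10 and 14.

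The largest difference upward in BT-549 was that of MGP, matrix Gla protein, an inhibitor of matrix calcification. MGP had log2 signals of 13.80, 13.43 and 12.75 in BT-549, against 6.72, 6.63 and 6.46 in MDA-MB-231. It was among the brighter genes of BT-549 and at background in MDA-MB-231, at least 94.3-fold apart (6.72 ± 0.37 SE, adjusted p = 4e-07). ACTA2, smooth muscle alpha actin, had 14, 13.67 and 12.42 in BT-549, against 7.26, 7.32 and 6.97 in MDA-MB-231, or 72.5-fold (6.18, adjusted p = 0.000139). CDH2, the N-cadherin of mesenchymal and neural cells, had 12.06, 12.01 and 11.80 in BT-549, against 6.64, 6.65 and 6.59 in MDA-MB-231, at least 36.5-fold apart (5.33, adjusted p = 1.03e-09). CDH2 had the tightest arrays of the 3 genes, while the BT-549 arrays of ACTA2 spread by more than 1 log2 unit.

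Other genes of the upper 15 were of connective tissue, nerve and development. TPM2 and TAGLN are of the contractile apparatus and FBLN2, SPARC, COL3A1 and THY1 of the matrix and the fibroblast surface. UCHL1, a ubiquitin hydrolase abundant in neurons, was at least 29.1-fold higher (11.63 ± 0.32 in BT-549 against 6.53 ± 0.08 in MDA-MB-231). FOXD1, a forkhead factor of kidney and eye development, was at least 28.0-fold higher, with 11.51, 11.61 and 11.60 in BT-549, against 6.47, 6.56 and 6.52 in MDA-MB-231. CD70, a TNF family ligand of the CD27 receptor, averaged 11.55 ± 0.17 in BT-549 and 6.63 ± 0.15 in MDA-MB-231. GAS1, a surface protein that binds hedgehog ligands, averaged 11.51 ± 0.82 in BT-549 and 6.62 ± 0.11 in MDA-MB-231. SBSPON, a secreted protein with thrombospondin repeats, averaged 11.13 ± 0.97 in BT-549 and 6.61 ± 0.09 in MDA-MB-231. In each of these genes the 3 BT-549 arrays lay above the 3 MDA-MB-231 arrays by more than 3 log2 units.

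The largest differences downward were 5 members of the SPANX family, X-linked genes normally expressed in sperm precursors and known from several cancers. SPANXA2 had 6.50, 6.55 and 6.64 in BT-549, against 13.20, 13.69 and 13.75 in MDA-MB-231, at least 110-fold apart (-6.98, adjusted p = 1.28e-08). SPANXB1 (-6.77), SPANXA1 (-6.62), SPANXD (-6.37) and SPANXC (-5.92) followed. All 5 were at or near the floor in BT-549 and between 11.73 and 13.76 in MDA-MB-231. They belong to a multigene family, so which copy a probe reads is uncertain. The RefSeq promoter windows (GRCh38.p14, 300 bases) of SPANXA1 and SPANXA2 agree at 300 of 300 bases, and those of SPANXA1 and SPANXC at 295 of 300. The windows of SPANXB1 and SPANXD, laid over SPANXA1 without gaps, agree at 76 and 84 bases. Such a comparison cannot tell unlike windows from shifted ones, and promoter letters do not show which transcript a probe reads. To show how alike 2 of the copies are, the windows from the minus strand of chrX:141584729-141584943 (SPANXA1) and chrX:141242508-141242722 (SPANXC) are printed 5′ to 3′, with capitals at the bases in which they differ.
SPANXA1: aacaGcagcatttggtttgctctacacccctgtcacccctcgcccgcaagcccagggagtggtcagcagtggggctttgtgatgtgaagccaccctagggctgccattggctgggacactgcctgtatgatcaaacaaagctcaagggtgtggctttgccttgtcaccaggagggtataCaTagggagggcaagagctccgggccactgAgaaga
SPANXC: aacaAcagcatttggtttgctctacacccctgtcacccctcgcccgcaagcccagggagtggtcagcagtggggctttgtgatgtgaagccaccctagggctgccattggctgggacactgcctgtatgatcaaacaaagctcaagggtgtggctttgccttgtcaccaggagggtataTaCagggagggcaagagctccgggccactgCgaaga
Of the 16 tested members of a wider list of cancer-testis genes, which does not hold the SPANX genes, limma called 1 higher and 2 lower in BT-549, none of them 2-fold.

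The other genes of the lower 15 came from varied classes. RAC2, a GTPase best known from blood cells, had 6.60, 6.60 and 6.71 in BT-549, against 11.86, 12.04 and 11.92 in MDA-MB-231, at least 36.1-fold apart. F3, the tissue factor that starts blood clotting, was at least 23.3-fold lower (6.67 ± 0.10 in BT-549 against 11.31 ± 0.27 in MDA-MB-231). LAMB3, a chain of the laminin that anchors epithelia, was at least 17.7-fold lower (6.57 ± 0.02 in BT-549 against 10.91 ± 0.78 in MDA-MB-231). The adhesion receptor gene ADGRE5 (CD97) differed by -4.60, and the IGF binding protein gene IGFBP4 by -4.26. FOXA2, a forkhead factor of endoderm, was at least 15.3-fold lower in BT-549, and KISS1, which encodes kisspeptin, at least 16.3-fold lower. EPDR1, ANXA3 and the X-linked BEX3 completed the group, at -4.43, -4.35 and -4.30. BEX3 lay above the floor in both lines, and its other probes gave -3.04 and -0.56.

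The labelled class was checked first. ESR1, the oestrogen receptor gene, was at background in both lines (6.68 to 6.70 in BT-549, 6.47 to 6.59 in MDA-MB-231), as was PGR, the progesterone receptor gene (6.48 to 6.57 in BT-549, 6.52 to 6.65 in MDA-MB-231). ERBB2, which encodes HER2, had 9.05, 8.80 and 8.41 in BT-549, against 8.41, 8.37 and 8.20 in MDA-MB-231. The 2 groups touched at 8.41 and the difference was not called (0.43, adjusted p = 0.301). Of the 11 tested genes of the luminal and receptor list, 1 was called higher in BT-549 and 4 lower. GATA3, a luminal transcription factor, was the higher one (8.08 ± 0.40 in BT-549 against 6.75 ± 0.04 in MDA-MB-231, adjusted p = 0.000264), with the MDA-MB-231 arrays at the floor. AGR2, a secretory protein of luminal cells, was lower (-1.78, adjusted p = 0.00066), though its other probe gave 0.05.

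Most markers of other cell types lay at background in each line, with exceptions in every list. Of 14 haematopoietic markers, 5 lay above the floor in BT-549 and 5 in MDA-MB-231, with PTPRC and CD3E at background in both, and the mean of the list was 6.85 to 6.90 in BT-549 and 7.13 to 7.23 in MDA-MB-231. CD68, a lysosomal protein abundant in macrophages, was lower in BT-549 (8.94 ± 0.71 in BT-549 against 11.46 ± 0.05 in MDA-MB-231, adjusted p = 0.00951). Endothelial markers had 1 of 11 above the floor in BT-549 and 3 of 11 in MDA-MB-231. CDH5 was at background in both, and ESAM, an adhesion molecule of endothelium, was lower in BT-549 (-2.96). Of 7 adipocyte markers, 3 lay above the floor in BT-549 and 2 in MDA-MB-231, with ADIPOQ and PLIN1 at background. Of 6 melanocyte markers, 1 did in BT-549 and 2 in MDA-MB-231, with TYR, MLANA and SOX10 at background. Of 8 basal and myoepithelial genes, 1 lay above the floor in BT-549 and 3 in MDA-MB-231, while KRT5 and KRT14 were at background in both lines.

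The tumour suppressor and oncogene loci that set these lines apart were read next. CDKN2A, which encodes the cell cycle inhibitor p16, had 12.44, 12.10 and 11.50 in BT-549, against 6.57, 6.58 and 6.57 in MDA-MB-231. The MDA-MB-231 arrays were at the background peak, and the lines were at least 38.0-fold apart (adjusted p = 1.7e-07). Other genes beside it on chromosome 9 were at background in MDA-MB-231 too. MTAP, an enzyme of adenine salvage, averaged 9.23 ± 0.17 in BT-549 and 6.60 ± 0.04 in MDA-MB-231. CDKN2B, the inhibitor p15, averaged 8.29 ± 0.29 in BT-549 and 6.53 ± 0.09 in MDA-MB-231, and KLHL9, an adaptor of a ubiquitin ligase, 9.87 ± 0.19 in BT-549 and 6.52 ± 0.06 in MDA-MB-231. FOCAD, one of the neighbours named after their values were seen, was also at background in MDA-MB-231 (0.86). HACD4, which lies between FOCAD and KLHL9 in the gene order, was at a like level in both lines (10.81 in BT-549 against 10.91 in MDA-MB-231). On the other side TUSC1 was higher in BT-549 (1.87, adjusted p = 9.67e-06) and above the floor in MDA-MB-231, next to the uncalled CAAP1 (0.07). Beyond CAAP1 the next tested genes were called higher as well (0.63 and 1.31) and lay above the floor in both lines.

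RB1, the retinoblastoma gene and the target of the CDK4 and CDK6 kinases that p16 inhibits, had 6.51, 6.49 and 6.65 in BT-549, against 7.11, 7.05 and 6.73 in MDA-MB-231. No BT-549 array reached the floor, and the MDA-MB-231 signal was dim (-0.41, adjusted p = 0.0311). The call was lost without BT-549 array 1 (0.0843) or 2 (0.101) and without MDA-MB-231 array 1 (0.0962) or 2 (0.101). Among its neighbours, LPAR6, a receptor gene that lies inside RB1, was higher in BT-549 (8 in BT-549 against 6.56 in MDA-MB-231). More distant tested neighbours were called higher too (0.98 and 0.52), and the rest of the nearest tested genes were not called. CDK4 (0.40, adjusted p = 0.225) and CDK6 (0.26, 0.418) were not called. CCND1, the cyclin D1 gene, had 10.21, 10.68 and 11.10 in BT-549, against 13.19, 12.99 and 13.05 in MDA-MB-231, or 5.33-fold lower (adjusted p = 0.00478). Its neighbours MYEOV (-1.81), LTO1 (-0.88), FADD (-0.86) and PPFIA1 (-0.70) were also called lower, though the other probes of PPFIA1 gave 0.06, -0.13 and -0.21. TPCN2, CTTN and the other nearest tested genes were not called.

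HRAS, a RAS GTPase, had 8.05, 8.21 and 8.40 in BT-549, against 10.00, 9.52 and 9.81 in MDA-MB-231, or 2.94-fold lower (adjusted p = 1.22e-05). The groups did not overlap, but the other probe of HRAS gave -0.05. Its neighbours RASSF7 (-1.38), PHRF1 (-0.97), RNH1 (-0.85) and PTDSS2 (-0.77) were lower too. Other near tested neighbours were not called and ran from -0.36 to 0.28. MYC was not called (10.38 ± 0.24 in BT-549 against 10.82 ± 0.41 in MDA-MB-231, adjusted p = 0.249). NF2, a tumour suppressor gene of the Hippo pathway, stayed at background on nearly all arrays and was not tested.

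Matrix genes were widely higher in BT-549. Of 29 tested fibrillar collagens and matrix glycoproteins, limma called 19 higher and 1 lower, against 14.9% and 15.5% of all genes, and 11 of the 29 were at background on every MDA-MB-231 array. The median difference of the list was 1.57, against -0.02 over all genes tested. The 1 lower became 2 without BT-549 array 3, MDA-MB-231 array 2 or BT-549 everolimus array 1. On the everolimus arrays 20 of the 20 were called in the same direction.

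Fibrillar collagens form the tensile fibres of connective tissue. COL3A1, the collagen III chain, had 11.70, 11.31 and 10.46 in BT-549, against 6.53, 6.56 and 6.53 in MDA-MB-231, at least 21.0-fold apart (adjusted p = 5.68e-05). COL1A1, a collagen I chain, had 9.70, 10.56 and 11 in BT-549, against 6.78 on each MDA-MB-231 array (3.64, adjusted p = 1.68e-06). COL1A2, the partner chain of COL1A1, had 9.46, 10.34 and 11.02 in BT-549, against 6.44, 6.58 and 6.46 in MDA-MB-231 (3.78, adjusted p = 1.14e-05). The BT-549 arrays ran in one order for COL3A1 and in the opposite order for the collagen I chains, and none reached the MDA-MB-231 level. COL5A2, which regulates fibre width, was at least 7.36-fold higher (9.65 ± 0.50 in BT-549 against 6.62 ± 0.06 in MDA-MB-231). COL8A1, a network collagen of vessel walls, went the other way. It had 6.67, 6.78 and 6.85 in BT-549, against 11.31, 9.54 and 9.72 in MDA-MB-231 (-3.42, adjusted p = 0.000614), and its other probes gave -3.02 and -1.28.

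Among the glycoproteins, SPARC, which binds collagen, had 12.20, 11.73 and 10.84 in BT-549, against 6.61, 6.61 and 6.63 in MDA-MB-231, at least 28.3-fold apart. FBLN2, fibulin 2, had 12, 11.80 and 11.73 in BT-549, against 6.50, 6.64 and 6.79 in MDA-MB-231. TGFBI, a matrix protein induced by TGF-beta, was high in both lines and 9.43-fold higher in BT-549 (13.44 ± 0.07 in BT-549 against 10.20 ± 0.21 in MDA-MB-231). Those 3 genes show both patterns of the list, expression in BT-549 alone and a higher level on top of expression in both lines. EFEMP2 (3.47) and MFAP2 (3.02), proteins of elastic fibres, were higher as well, with other probes of MFAP2 at 0.31 and 0.53. THBS2, thrombospondin 2, averaged 8.29 ± 0.04 in BT-549 and 6.46 ± 0.09 in MDA-MB-231. FN1, the fibronectin gene, was near the floor in both lines on its tested probe (6.58 ± 0.06 in BT-549 against 6.66 ± 0.17 in MDA-MB-231, adjusted p = 0.653).

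Enzymes that process collagen were called on both sides, 8 higher and 2 lower of 15 tested (median 0.89). PLOD1, a lysyl hydroxylase of collagen, had 13.40, 13.01 and 12.33 in BT-549, against 10.03, 10.27 and 10.35 in MDA-MB-231, or 6.48-fold higher (adjusted p = 1.7e-05). LOX, the lysyl oxidase that crosslinks collagen, was 5.75-fold higher (10.23 ± 0.29 in BT-549 against 7.70 ± 0.21 in MDA-MB-231), and SERPINH1, the collagen chaperone, 2.65-fold. P4HA1, a prolyl hydroxylase of collagen, was 2.66-fold higher, and PCOLCE2, an enhancer of procollagen cleavage, 2.87-fold. TGM2, a transglutaminase that crosslinks matrix proteins, had 7.23, 8.17 and 8.66 in BT-549, against 11.05, 11.63 and 11.85 in MDA-MB-231, or 11.2-fold lower (adjusted p = 0.000115). LOXL4, another lysyl oxidase, was at background in BT-549 and at least 3.20-fold lower.

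Basement membrane genes had 8 called higher and 1 lower of 15 tested (median 0.35), the lower one being LAMB3, and 2 lower without BT-549 array 1, BT-549 everolimus array 1 or MDA-MB-231 everolimus array 1. COL4A5 (2.55, adjusted p = 0.00112) and COL4A1 (1.47, adjusted p = 0.000393) are chains of the collagen IV network. The laminin chains LAMB1 (1.27) and LAMC1 (1.21), which are common to many tissues, were also higher in BT-549. LAMB3, by contrast, had 6.57, 6.59 and 6.56 in BT-549, against 10.02, 11.44 and 11.27 in MDA-MB-231.

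Of 17 tested genes of smooth muscle contraction, limma called 7 higher in BT-549 and 0 lower (median 0.48), 6 and 1 without MDA-MB-231 array 1, and 9 and 1 without BT-549 everolimus array 1. Beside ACTA2, TPM2, a tropomyosin that lies along actin filaments, had 14.19, 14 and 13.56 in BT-549, against 9, 8.27 and 8.35 in MDA-MB-231, or 41.5-fold higher (adjusted p = 6.68e-07). TAGLN, the actin-binding transgelin, had 13.53, 13.31 and 12.85 in BT-549, against 6.87, 8.28 and 8.58 in MDA-MB-231, or 40.0-fold higher (adjusted p = 2.17e-05). MYL9, a myosin light chain, was 6.29-fold higher (10.56 ± 0.34 in BT-549 against 7.90 ± 0.46 in MDA-MB-231). For TAGLN and MYL9, MDA-MB-231 array 1 lay below arrays 2 and 3. TPM1, another tropomyosin, was 6.90-fold higher on its brightest probe, and its other probes gave 2.74, 0.58 and 0.53. CALD1, caldesmon, was 4.11-fold higher, with other probes at 1.23 and 0.10. ACTN1 (-0.34), SMTN (-1) and MYLK (0.04) were not called.

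Contractile genes are classical targets of serum response factor, which binds the CArG box. Of 15 contractile genes with a RefSeq promoter window (250 bases before the start to 50 after it), 8 hold a CArG box (53.3%), against 1.62% of the 9426 tested genes with a window and 1.29% of 35116 windows. Few of the 8 were called between the lines. CNN2, calponin 2, is the one called gene among the 8 (10.94 ± 0.27 in BT-549 against 9.78 ± 0.21 in MDA-MB-231, adjusted p = 0.0187). The call was lost without BT-549 array 1 (0.0664) or 2 (0.0599) or MDA-MB-231 array 1 (0.0572). ACTA2, TPM1, TPM2 and CALD1 were called without a match in this window. The called TAGLN and MYL9 had no window and were not searched. Only exact matches were counted, so looser forms of the box would be missed. The called CNN2 (chr19:1026489-1026558, plus strand) and the uncalled SMTN (chr22:31084922-31084991, plus strand) and MYLK (chr3:123620603-123620672, minus strand) are shown with the box in capitals, to set a called gene beside uncalled ones.
CNN2: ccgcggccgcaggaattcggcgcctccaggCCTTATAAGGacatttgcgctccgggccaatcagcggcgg
SMTN: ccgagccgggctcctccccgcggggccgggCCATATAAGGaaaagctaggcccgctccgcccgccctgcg
MYLK: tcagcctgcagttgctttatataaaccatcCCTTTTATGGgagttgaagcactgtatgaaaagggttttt
A match is a description of the letters and shows no binding.

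**Figure D3:**
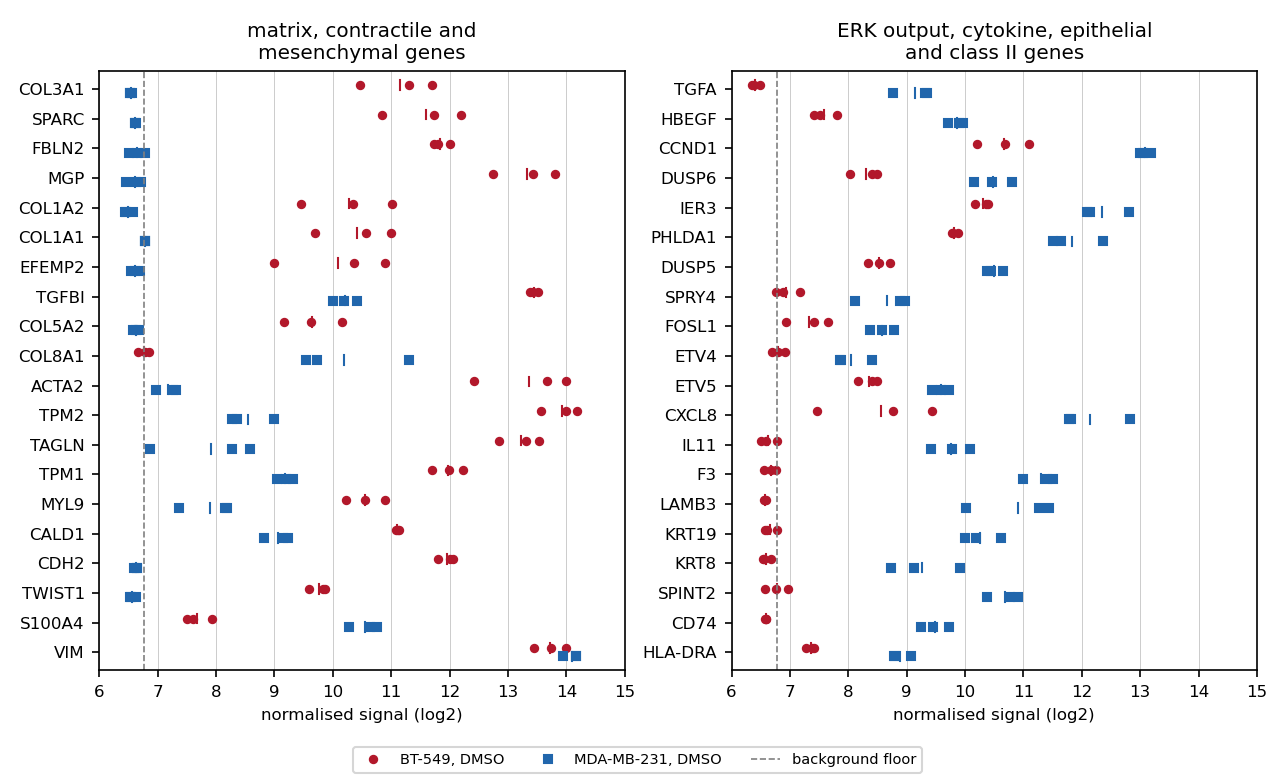
Log2 signal on each DMSO array for matrix, contractile and mesenchymal genes (left) and for ERK output, cytokine, epithelial and class II genes (right); circles are BT-549 arrays, squares MDA-MB-231 arrays, short bars means of 3 arrays, and the dashed line the floor of 6.77. On the left most genes lie higher in BT-549, with COL8A1 and S100A4 lower and VIM alike, and on the right the shown genes lie lower in BT-549.

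Genes that mark mesenchymal cells had 7 called higher in BT-549 and 1 lower of 13 tested (61.5%, against 30.4% of all genes, median 1.28). The counts were 7 and 2 without BT-549 array 3. On every MDA-MB-231 array 6 of the 13 were at background, and on every BT-549 array 1 was. Each of these could be called in 1 direction only. TWIST1, a transcription factor of the epithelial-mesenchymal transition, had 9.59, 9.83 and 9.86 in BT-549, against 6.62, 6.52 and 6.54 in MDA-MB-231, at least 7.96-fold apart (adjusted p = 1.1e-08). TWIST2, its close relative, was at least 2.01-fold higher and the E-protein gene TCF4 at least 2.84-fold. CDH11, a cadherin of osteoblasts and fibroblasts, averaged 10.88 ± 0.46 in BT-549 and 7.91 ± 0.18 in MDA-MB-231. VIM, the vimentin gene, was near the top of the scale in both lines, with 13.45, 13.73 and 14 in BT-549, against 14.17, 14.17 and 13.94 in MDA-MB-231 (adjusted p = 0.117). SNAI2, another transition factor, was not called (0.48, adjusted p = 0.318), and ZEB1 was at or near background in both lines.

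S100A4, a calcium-binding protein also called fibroblast-specific protein, was the list's lower member. It had 7.93, 7.60 and 7.51 in BT-549, against 10.28, 10.64 and 10.75 in MDA-MB-231, or 7.34-fold lower (adjusted p = 9.03e-05). Without MDA-MB-231 array 3 a different probe was the brightest and gave -1.66 (adjusted p = 0.0157). Its family leaned the same way, with 1 called higher and 4 lower of 13 tested S100 genes. S100A16 was at least 9.45-fold lower in BT-549 and at background there, and S100A6 was 3.35-fold lower at a high level in both lines (12.20 ± 0.33 in BT-549 against 13.94 ± 0.10 in MDA-MB-231).

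Cadherins and protocadherins, the calcium-dependent adhesion proteins, had 8 called higher and 0 lower of 16 tested (median 0.43), and 6 and 1 without MDA-MB-231 array 1 or 2. The share called was 50%, against 30.4% of all genes, and 74 others of the family were not tested for lack of signal. On every MDA-MB-231 array 4 of the 16 were at background, and on every BT-549 array 1 was. Each of these could be called in 1 direction only. Beside CDH2 and CDH11, CDH10 averaged 10.85 ± 0.66 in BT-549 and 6.98 ± 0.25 in MDA-MB-231, CDH3 was at least 4.25-fold higher, and the protocadherin PCDHB2 was 6.05-fold higher. CDH1, the epithelial E-cadherin, was at background in both lines (6.44 to 6.58 in BT-549, 6.50 to 6.61 in MDA-MB-231).

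Genes of epithelial junctions, by contrast, had 0 called higher and 5 lower of 9 tested (median -0.68), and 14 others of the list were not tested for lack of signal. Of the 9, 4 were at background on every BT-549 array. SPINT2, a membrane inhibitor of serine proteases in epithelia, had 6.58, 6.76 and 6.97 in BT-549, against 10.77, 10.37 and 10.90 in MDA-MB-231, or 15-fold lower (adjusted p = 1.14e-05). CLDN7, a claudin of tight junctions, was at least 1.76-fold lower. EPCAM, the epithelial adhesion molecule, had 6.61, 6.57 and 6.54 in BT-549, against 8.84, 7.35 and 7.55 in MDA-MB-231 (-1.34, adjusted p = 0.0346). The EPCAM difference rested on MDA-MB-231 array 1, without which it was -0.88 (adjusted p = 0.107), and the call was also lost without BT-549 array 1 (0.0784), 2 (0.0866) or 3 (0.0758). CLDN3 and ESRP1 were at background in both lines.

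Keratins, the intermediate filaments of epithelia, had 0 called higher and 5 lower of 12 tested (median -0.48), of which 6 were at background on every BT-549 array. The 5 became 3 without BT-549 array 2 and 3 without MDA-MB-231 array 3. KRT19 had 6.78, 6.61 and 6.57 in BT-549, against 10.61, 10.18 and 10.00 in MDA-MB-231, or 12.2-fold lower (adjusted p = 3.1e-07). KRT8 was at least 5.60-fold lower and KRT7 at least 3.04-fold, both at background in BT-549. KRT18, the partner of KRT8, was dim in both lines and was not called (6.89 ± 0.27 in BT-549 against 7.47 ± 0.48 in MDA-MB-231, adjusted p = 0.0666). SFN, stratifin of squamous and mammary epithelium, was at least 3.35-fold lower in BT-549.

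Surface markers used to sort breast cells did not move together. CD24, a surface glycoprotein, had 12.99, 12.92 and 12.34 in BT-549, against 8.89, 9.13 and 9.08 in MDA-MB-231, or 13.2-fold higher (adjusted p = 2.52e-07). CD44, the hyaluronan receptor, was alike in the lines (12.11 ± 0.26 in BT-549 against 12.16 ± 0.36 in MDA-MB-231, adjusted p = 0.878). Integrins, the receptors for matrix, had 4 called higher and 7 lower of 19 tested, 2 and 5 without BT-549 array 2 or MDA-MB-231 array 2, and 2 and 6 without MDA-MB-231 array 1. ITGA2, the collagen receptor chain, was at background in BT-549 and at least 5.71-fold lower. ITGB2, a leukocyte integrin chain, was 4.77-fold lower, ITGA3 was 4.30-fold lower, and ITGA6, a laminin receptor chain, was 3.59-fold lower. The caveola coat genes CAVIN3 (-2.48) and CAVIN2 (-1.69) were lower too.

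**Figure D4:**
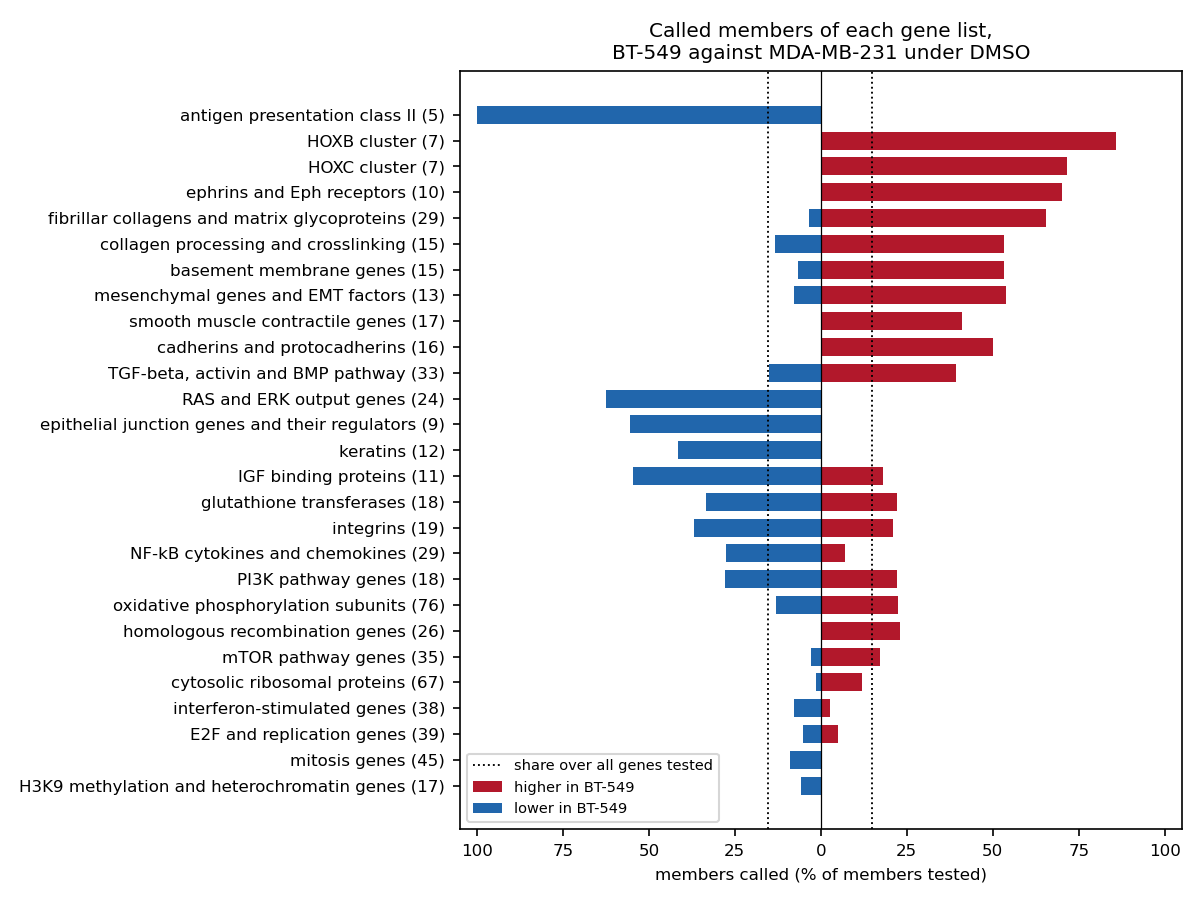
Share of tested members (%) called higher (right, red) or lower (left, blue) in BT-549 for each gene list, with the number of members tested in brackets; dotted lines mark the shares over all 11764 genes, 14.9% higher and 15.5% lower. Class II, ERK output, junction and keratin genes reach left, and HOXB, HOXC, ephrin, matrix and cadherin genes reach right, while mitosis, E2F and heterochromatin genes stay short of both lines.

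Genes that the RAS and ERK pathway switches on were lower in BT-549. Of 24 tested, limma called 0 higher and 15 lower (median -1.18), 1 and 14 without BT-549 array 3, and 1 and 15 without BT-549 everolimus array 1. On the everolimus arrays 10 of the 15 were called again. ERK is a kinase at the end of the RAS cascade, and its output genes include growth factor ligands, cyclin D1, transcription factors and the phosphatases and Sprouty proteins that restrain it.

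The ligands of the EGF receptor in the list were low in BT-549. TGFA had 6.35, 6.48 and 6.39 in BT-549, against 8.76, 9.32 and 9.35 in MDA-MB-231, at least 5.19-fold apart (adjusted p = 4.51e-07). HBEGF had 7.81, 7.52 and 7.42 in BT-549, against 9.70, 9.90 and 9.97 in MDA-MB-231, or 4.83-fold lower (adjusted p = 1.41e-06). EGFR, their receptor, was 2.39-fold lower on its brightest probe (7.31 ± 0.08 in BT-549 against 8.57 ± 0.13 in MDA-MB-231, adjusted p = 4.92e-05), and its other probe gave 0.05. Of the other kinase receptors, AXL had 9.31, 9.61 and 10.12 in BT-549, against 10.85, 11.05 and 11.10 in MDA-MB-231 (-1.32, adjusted p = 0.00934), and MERTK, of the same family, differed by -1.13.

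Of 20 tested growth factor ligands, 3 were called higher and 5 lower, TGFA and HBEGF among the lower ones. FGF2, a fibroblast growth factor, had 9.55, 9.76 and 9.87 in BT-549, against 6.60, 6.67 and 6.61 in MDA-MB-231, at least 7.78-fold apart (adjusted p = 1.1e-08), and its other probe gave 0.69. MDK, midkine, was 10.2-fold higher (11.52 ± 0.55 in BT-549 against 8.17 ± 0.55 in MDA-MB-231, adjusted p = 0.000124), though its 4 other probes gave only 0.44 to 0.89.

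Feedback inhibitors of ERK were lower as well. DUSP6, a phosphatase of ERK, had 8.03, 8.49 and 8.41 in BT-549, against 10.80, 10.46 and 10.16 in MDA-MB-231, or 4.48-fold lower (adjusted p = 1.55e-05), and its other probe gave -0.41. DUSP5, a nuclear ERK phosphatase, was 3.92-fold lower (adjusted p = 0.00483), and SPRY4, a Sprouty protein, 3.29-fold (adjusted p = 0.0101). PHLDA1, an early response gene, was 4.07-fold lower (adjusted p = 0.000223), with its other probe at -0.20. IER3 averaged 10.31 ± 0.12 in BT-549 and 12.34 ± 0.41 in MDA-MB-231 (adjusted p = 0.0166; 0.0533 without MDA-MB-231 array 1). The ETS factors ETV4 (-1.25, adjusted p = 0.00545) and ETV5 (-1.23, adjusted p = 0.00044) and the AP-1 subunit FOSL1 (-1.25, adjusted p = 0.0146; 0.0601 without BT-549 array 1) were lower by like amounts.

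AP-1, of which FOSL1 is a part, binds the letters TGACTCA. That motif, on either strand, stands in 4.95% of 35116 RefSeq promoter windows and in 4.98% of those of the 9426 tested genes. Among genes at least 2-fold lower in BT-549 it stands in 43 of 435 (9.89%), and among genes at least 2-fold higher in 23 of 436 (5.28%). Of called genes above the floor in MDA-MB-231 alone, 27 of 245 hold it (11%), against 10 of 211 above the floor in BT-549 alone (4.74%). These shares describe the letters within 300 bases of the start, and no test was made of them. Windows of genes lower in BT-549 are shown with the motif or its reverse complement in capitals, because these genes are described beside them. They lie at chr4:73740402-73740468 (CXCL8, plus strand), chr19:55370523-55370589 (IL11, minus strand), chr1:209651405-209651471 (LAMB3, minus strand), chr1:94541933-94541999 (F3, minus strand) and chr12:13196521-13196587 (EMP1, plus strand) of GRCh38.p14.
CXCL8: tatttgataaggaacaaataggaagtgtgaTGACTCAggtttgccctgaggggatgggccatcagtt
IL11: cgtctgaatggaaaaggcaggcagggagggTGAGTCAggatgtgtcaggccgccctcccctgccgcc
LAMB3: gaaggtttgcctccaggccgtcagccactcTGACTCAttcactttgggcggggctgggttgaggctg
F3: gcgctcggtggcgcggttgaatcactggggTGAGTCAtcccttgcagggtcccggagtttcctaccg
EMP1: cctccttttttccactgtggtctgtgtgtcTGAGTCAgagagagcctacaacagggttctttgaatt
EMP1, an epithelial membrane protein induced by growth signals, averaged 9.85 ± 0.03 in BT-549 and 10.87 ± 0.09 in MDA-MB-231 (adjusted p = 0.000205).

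Cytokines and chemokines under NF-kB control had 2 called higher and 8 lower of 29 tested (median -0.23), and 1 and 5 without BT-549 array 2 or MDA-MB-231 array 2 or 3. Without BT-549 array 1 they were 4 and 4, without BT-549 array 3 they were 1 and 6, and without MDA-MB-231 array 1 they were 1 and 7. Without MDA-MB-231 everolimus array 1 they were 1 and 8, and without array 2 or 3 of that group 1 and 7. CXCL8, a neutrophil chemokine, had 7.46, 8.76 and 9.44 in BT-549, against 12.83, 11.82 and 11.78 in MDA-MB-231 (-3.59, adjusted p = 0.0373). The groups lay over 2 log2 units apart, but the BT-549 arrays spread by nearly as much. The CXCL8 call was lost without BT-549 array 1 (0.126) or 2 (0.0833), MDA-MB-231 array 1 (0.0962), 2 (0.0744) or 3 (0.0737), and MDA-MB-231 everolimus array 2 (0.0521) or 3 (0.0516). IL11, a cytokine of the IL6 family, had 6.78, 6.50 and 6.59 in BT-549, against 9.77, 10.09 and 9.41 in MDA-MB-231, or 8.78-fold lower (adjusted p = 1.13e-05).

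IL1A, interleukin 1 alpha, was at background in BT-549 and at least 1.77-fold lower. IL6 had 6.68, 7.04 and 7.66 in BT-549, against 9.82, 8.21 and 7.88 in MDA-MB-231, and CCL2 had 8.21, 8.43 and 8.72 in BT-549, against 8.39, 10.81 and 9.95 in MDA-MB-231. Neither was called (adjusted p = 0.203 and 0.127), and the MDA-MB-231 arrays of both spread by about 2 log2 units. SOD2, the mitochondrial superoxide dismutase that NF-kB induces, was 3.99-fold higher in BT-549 (11.04 ± 0.29 in BT-549 against 9.04 ± 0.21 in MDA-MB-231, adjusted p = 0.000112).

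Genes of clotting and matrix breakdown were mixed. F3 had 6.76, 6.56 and 6.68 in BT-549, against 11.51, 11 and 11.41 in MDA-MB-231 (adjusted p = 1.1e-08), and PROCR, the protein C receptor, was 2.84-fold lower. TFPI, the inhibitor of tissue factor, was 1.41-fold higher in BT-549 under DMSO (9.44 ± 0.08 in BT-549 against 8.94 ± 0.12 in MDA-MB-231, adjusted p = 0.00891), with other probes at 0.17 and 0.16. SERPINE2, a thrombin inhibitor, was 2.07-fold higher. PLAU, urokinase, was not called (10.40 ± 0.77 in BT-549 against 11.80 ± 0.62 in MDA-MB-231, adjusted p = 0.161). MMP1, interstitial collagenase, had 7.41, 7.84 and 7.97 in BT-549, against 13.08, 10.56 and 10.54 in MDA-MB-231, or 12.6-fold lower (adjusted p = 0.00984). ADAM8, a membrane metalloprotease, was at background in BT-549, and TIMP1, an inhibitor of metalloproteases, was 2.35-fold higher there.

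The TGF-beta, activin and BMP pathway had 13 called higher and 5 lower of 33 tested (median 0.11), and 11 and 4 without BT-549 array 2. Inhibitor of differentiation genes, the classical targets of BMP signals, were higher too. ID3 had 12.78, 12.70 and 12.66 in BT-549, against 8.45, 9.07 and 8.89 in MDA-MB-231, or 15-fold higher (adjusted p = 3.58e-06). ID2 had 11.99, 11.77 and 11.34 in BT-549, against 6.67, 8.80 and 8.43 in MDA-MB-231, or 13.3-fold higher (adjusted p = 0.00201). ID1 was 4.70-fold higher (12.19 ± 0.26 in BT-549 against 9.95 ± 0.41 in MDA-MB-231). MDA-MB-231 array 1 had the lowest level of all 3 ID genes.

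Among ligands and modulators, BMP7 was at least 3.53-fold higher in BT-549, FSTL1 was 4.74-fold higher and LTBP3, which binds latent TGF-beta, 3.65-fold higher. BAMBI, a decoy receptor, and the inhibitory SMAD6 and SMAD7 were higher by 1.90, 1.39 and 1.14. On the receptor and activator side the order turned. TGFBR2, a TGF-beta receptor, had 9.03, 9.30 and 9.53 in BT-549, against 11.26, 10.91 and 10.85 in MDA-MB-231, or 3.29-fold lower (adjusted p = 0.000135). SMAD3, which carries the TGF-beta signal, was 2.85-fold lower (7.73 ± 0.06 in BT-549 against 9.24 ± 0.44 in MDA-MB-231), and INHBB, an activin subunit, 2.78-fold lower.

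Other developmental pathways were split. Of 23 WNT pathway genes, 6 were called higher and 3 lower (6 and 6 without BT-549 everolimus array 1), of 18 NOTCH pathway genes 5 and 3, and of 10 ephrins and Eph receptors 7 and 0. The shares called were 39.1%, 44.4% and 70%, against 30.4% of all genes. SFRP1, a secreted WNT antagonist, had 11.49, 10.72 and 9.49 in BT-549, against 6.66, 6.61 and 6.52 in MDA-MB-231, at least 13.9-fold apart (adjusted p = 0.000462). DKK3 (1.92) and the ligand WNT5B (1.65) were higher too. DLL3, an inhibitory NOTCH ligand of neuroendocrine cells, had 9.34, 9.37 and 9.39 in BT-549, against 6.54, 6.57 and 6.51 in MDA-MB-231, at least 6.06-fold apart (adjusted p = 1.29e-08), with its other probe at 0.29. NOTCH3 was 3.25-fold higher in BT-549, while the ligand JAG1 (-1.23) and the glycosyltransferase LFNG (-1.10) were lower.

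Ephrins are membrane ligands of guidance receptors. EFNB3 was at least 3.41-fold higher in BT-549, EFNA1 was 3.46-fold higher and EFNB2 was 2.02-fold higher. The 7 ephrin and Eph calls became 4 without BT-549 array 1 or 2 and 3 without MDA-MB-231 array 3. On every MDA-MB-231 array 2 of the 10 tested genes were at background, so these could be called higher only. The Hippo target ANKRD1 was at background in BT-549 (6.49, 6.70 and 6.61), against 10.29, 10.28 and 10.10 in MDA-MB-231, at least 11-fold apart (adjusted p = 0.00533).

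Homeobox genes, which record position along the body axis, differed by cluster. Of 7 tested HOXB genes, 6 were called higher in BT-549 and 0 lower (median 2.23), and of 7 HOXC genes 5 and 0 (median 0.96). These were 85.7% and 71.4%, against 30.4% of all genes. On every MDA-MB-231 array 2 of the HOXB and 3 of the HOXC genes were at background, so these could be called higher only. HOXB2 had 8.87, 8.79 and 9.05 in BT-549, against 6.61, 6.55 and 6.56 in MDA-MB-231, at least 4.40-fold apart. HOXB5 had 10.56, 9.88 and 9.10 in BT-549, against 7.57, 7.14 and 7.26 in MDA-MB-231. HOXB7, HOXB6 and HOXB8 were higher by 2.33, 2.04 and 2.23, with another probe of HOXB6 at 0.27, and HOXB4 by 0.60. These genes are neighbours, and 6 neighbouring tested genes from HOXB4 to PRAC2 were called higher in a row.

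In the HOXC cluster, HOXC8 was 2.98-fold and HOXC6 2.77-fold higher in BT-549, and HOXC6 was well above the floor in both lines (10.89 ± 0.25 in BT-549 against 9.42 ± 0.06 in MDA-MB-231). In the HOXD cluster, on chromosome 2, 2 of 3 tested genes were called lower. All 3 were at background on every BT-549 array, so they could be called in that direction only. HOXD1 was at least 1.85-fold and HOXD4 at least 1.56-fold lower, both at background in BT-549. Other developmental factors were split too. SOX11, a factor of embryonic neurons, was at least 2.98-fold higher, and SOX4 was 3.47-fold higher. FOXQ1, a forkhead factor of epithelia, had 6.50, 6.58 and 6.43 in BT-549, against 10.28, 9.41 and 9.58 in MDA-MB-231, at least 7.94-fold apart.

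Some neuronal and imprinted genes differed strongly. Of 13 tested neuronal and neuroendocrine genes, 5 were called higher in BT-549 and 0 lower (38.5%, against 30.4% of all genes). On every MDA-MB-231 array 5 of the 13 were at background, and on every BT-549 array 2 were. Each of these could be called in 1 direction only. Beside UCHL1, STMN3, a stathmin of neurons, was 7.36-fold higher (11.48 ± 0.62 in BT-549 against 8.60 ± 0.78 in MDA-MB-231), and SNAP25, a protein of synaptic vesicle fusion, at least 2.54-fold. PLAGL1, an imprinted zinc finger gene, averaged 9.90 ± 0.47 in BT-549 and 6.57 ± 0.04 in MDA-MB-231, at least 8.79-fold apart. The imprinted noncoding RNA MEG3 was at least 4.71-fold higher, with another probe at 0.37, and the imprinted PHLDA2 was 3.62-fold lower. Genes of the X-linked BEX and TCEAL family had 1 called higher and 5 lower of 10, and 3 and 4 without BT-549 array 3. BEX5 was at least 8.98-fold higher in BT-549, while BEX3 and TCEAL9 (-2.04) were lower.

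Genes of antigen presentation by class II molecules, which show peptides to helper T cells, were lower in BT-549. Of 10 with a probe, 5 were tested and limma called 0 higher and 5 lower (median -1.68), also without BT-549 array 2. A member that passed the floor did so through MDA-MB-231 in 4 of the 5. CD74, the invariant chain, had 6.59, 6.57 and 6.59 in BT-549, against 9.25, 9.73 and 9.45 in MDA-MB-231, at least 6.54-fold apart (adjusted p = 3.24e-06), with other probes at -2.23 and -0.24. HLA-DRA had 7.37, 7.27 and 7.42 in BT-549, against 9.08, 8.78 and 8.80 in MDA-MB-231, or 2.90-fold lower (adjusted p = 2.92e-05). HLA-DMA, HLA-DMB and HLA-DPA1 were at least 2.90-, 3.16- and 2.03-fold lower, at background in BT-549. CIITA, the master regulator of these genes, was near the floor in both lines (6.40 to 6.65 in BT-549, 6.76 to 6.96 in MDA-MB-231) and was not tested.

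Of 14 tested class I genes, 2 were called higher and 2 lower (28.6%, against 30.4% of all genes), and interferon genes gave few calls. HLA-B had 7.20, 8.23 and 8.52 in BT-549, against 9.92, 9.46 and 9.17 in MDA-MB-231 (adjusted p = 0.0579), and B2M, the class I light chain, was alike (13.03 ± 0.22 in BT-549 against 13.26 ± 0.20 in MDA-MB-231). Of 38 tested interferon-stimulated genes, 1 was called higher and 3 lower (median 0.00), a smaller share than the 30.4% of all genes. IFI16, a sensor of DNA, was 4.41-fold lower in BT-549, HERC5 was 3.66-fold lower, and XAF1 was 2.01-fold higher. Without BT-549 array 1, 3 were higher and 3 lower, without BT-549 array 2 they were 1 and 2, and without BT-549 everolimus array 1 they were 2 and 5.

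The interferon genes varied among the BT-549 arrays. MX1, an antiviral GTPase chosen after its values were seen, had 6.56, 9.84 and 10.77 in BT-549, against 6.97, 7.19 and 6.93 in MDA-MB-231 (adjusted p = 0.233). IFIT2 had 6.85, 8.32 and 8.85 in BT-549, against 9, 10.38 and 9.89 in MDA-MB-231. In both genes BT-549 array 1 was far below arrays 2 and 3. Metallothioneins, which bind zinc and copper, did the same, with MT1E at 7.78, 10.14 and 10.81 in BT-549, against 12.28, 12.10 and 12.12 in MDA-MB-231, and MT2A at 10.93, 12.91 and 13.51 in BT-549, against 13.30, 13.70 and 13.47 in MDA-MB-231. Neither was called (adjusted p = 0.0673 and 0.225). Without the 4 replicate 1 arrays, 1 of each group, 11 interferon genes were called higher in BT-549 and 9 lower. Over all genes 5311 of 11232 were then called.

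Of 8 tested complement genes and surface inhibitors, 2 were called higher and 2 lower. The inhibitors CD59 and CD55 were lower, CD59 by 1.41 and CD55 by 1.34 log2 units, while CFD, complement factor D, was 3.54-fold higher (8.55 ± 0.64 in BT-549 against 6.73 ± 0.18 in MDA-MB-231). CFD also stands in the adipocyte marker list, of whose 4 tested genes it was the one called.

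With all 12 arrays few cell cycle genes were called between the lines, but the counts depended on which arrays were kept. Of 45 tested mitosis genes limma called 0 higher and 4 lower, fewer than the 15.5% of all genes, although 42 of the 45 had a negative sign (median -0.37, median size 0.39, against 0.29 over all genes). The 4 became 1 without BT-549 array 1 or 2 or MDA-MB-231 array 2, and 2 without MDA-MB-231 array 1 or 3. Without BT-549 everolimus array 1, 15 of the 45 were called lower and 2 higher. That is a larger share called lower than the 2243 of 11622 over all genes. MDA-MB-231 array 2 and MDA-MB-231 everolimus array 1, when left out, each gave 1 higher. Without the 4 replicate 1 arrays 2 were called higher and 23 lower, also a larger share called lower than the 2798 of 11232 over all genes. BUB3, a spindle checkpoint gene, averaged 10.95 ± 0.04 in BT-549 and 11.84 ± 0.05 in MDA-MB-231 (adjusted p = 0.0025), and TOP2A was alike (11.09 ± 0.12 in BT-549 against 11.18 ± 0.19 in MDA-MB-231). Of 39 E2F and replication genes 2 were higher and 2 lower, and these counts moved between 0 and 3 and between 0 and 7 with 1 array left out. The lowest was 0 higher without MDA-MB-231 array 3 and 0 lower without BT-549 array 1 or 2, and the highest was 3 and 7 without BT-549 everolimus array 1. PCNA, the replication clamp, was not called (0.23, adjusted p = 0.695).

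Of 26 tested genes of p16, RB1 and G1 control, 5 were called higher in BT-549 and 5 lower. Beside CCND1, CCND2, the cyclin D2 gene, had 6.46, 6.47 and 6.39 in BT-549, against 10.13, 8.72 and 9.27 in MDA-MB-231, at least 6.09-fold apart (adjusted p = 9.3e-05). CCND3, another D-type cyclin, was not called (10.41 ± 0.27 in BT-549 against 11.32 ± 0.12 in MDA-MB-231, adjusted p = 0.138), but was on the 6 DMSO arrays alone (0.00414) and without BT-549 everolimus array 1 (0.000478). CDKN1A, the inhibitor p21, was not called (8.76 ± 0.12 in BT-549 against 9.64 ± 0.62 in MDA-MB-231, adjusted p = 0.449). XPC, a sensor of DNA damage, was 2.97-fold higher in BT-549 (9.22 ± 0.17 in BT-549 against 7.65 ± 0.07 in MDA-MB-231, adjusted p = 2.92e-05). BCL2L1, an inhibitor of cell death, had 9.79, 9.98 and 10.16 in BT-549, against 12.22, 12.11 and 12.04 in MDA-MB-231, or 4.43-fold lower (adjusted p = 6.53e-07).

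The study's own themes, DNA repair, heterochromatin and mTOR, gave few calls at baseline. Of 26 homologous recombination genes, 6 were called higher in BT-549 and 0 lower (23.1%, against 30.4% of all genes; median 0.02). The 6 became 3 without BT-549 array 1 or 3 or MDA-MB-231 array 1 or 3, with 1 lower without MDA-MB-231 array 1. Without BT-549 everolimus array 1 they were 7 and 1, and without MDA-MB-231 everolimus array 1 they were 5 and 1. NBN, of the complex that senses double-strand breaks, averaged 8.66 ± 0.18 in BT-549 and 7.96 ± 0.24 in MDA-MB-231 (adjusted p = 0.00383), and RAD54B, a partner of the recombinase, 7.85 ± 0.34 in BT-549 and 7.21 ± 0.07 in MDA-MB-231 (adjusted p = 0.0118). Both lie on chromosome 8. BRCA1 was not called (8.41 ± 0.35 in BT-549 against 8.20 ± 0.18 in MDA-MB-231, adjusted p = 0.667).

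Of 17 genes of H3K9 methylation and heterochromatin, 0 were called higher and 1 lower (median -0.10), and 2 lower without MDA-MB-231 array 1 or BT-549 everolimus array 1. SUV39H1, an H3K9 methyltransferase, had 8.56, 8.52 and 8.43 in BT-549, against 8.95, 8.59 and 8.72 in MDA-MB-231. The groups lay side by side without overlap, and the difference was not called (-0.25, adjusted p = 0.239). CBX3, a heterochromatin protein, was 1.82-fold lower on its brightest probe (adjusted p = 0.0126), while its other probe gave 0.16.

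MTOR, the target of everolimus, had 8.5, 9.25 and 9.61 in BT-549, against 7.89, 8.40 and 8.5 in MDA-MB-231. The groups met at 8.5, and the call (0.86, adjusted p = 0.0412) was lost without BT-549 array 2 (0.121) or 3 (0.138), MDA-MB-231 array 1 (0.127), 2 (0.0705) or 3 (0.0551), BT-549 everolimus array 2 (0.0518) or MDA-MB-231 everolimus array 3 (0.0559). FKBP1A, which everolimus binds, was alike on its brightest probe (10.75 ± 0.44 in BT-549 against 10.71 ± 0.13 in MDA-MB-231), but its other probes gave -0.83, -0.67 and -0.47. Of 35 mTOR pathway genes, 6 were called higher and 1 lower (median 0.04). The 1 lower became 3 without BT-549 everolimus array 1, and 2 without BT-549 array 3, MDA-MB-231 array 1, BT-549 everolimus array 3 or MDA-MB-231 everolimus array 1. RRAGA, a Rag GTPase that brings mTOR to lysosomes, was 2.41-fold higher in BT-549, and LAMTOR2, of its lysosomal anchor, was 2.00-fold higher. RRAGD, another Rag GTPase, was at background in BT-549 and at least 2.49-fold lower.

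PI3K pathway genes were called on both sides, 4 higher and 5 lower of 18. PIK3R1, the regulatory subunit, was 2.81-fold higher in BT-549 (8.90 ± 0.30 in BT-549 against 7.41 ± 0.06 in MDA-MB-231). The insulin receptor substrates IRS1 and IRS2 were 2.94-fold and 2.29-fold lower, and the phosphatase INPP4B 2.88-fold lower. SGK1, a kinase downstream of PI3K, was 2.43-fold higher.

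Of 11 genes in a list of IGF binding proteins, 2 were called higher and 6 lower, and 1 and 6 without BT-549 array 1 or 2. The 6 include IGF2BP2 (-0.59) and IGF2BP3 (-0.56), which bind RNA and not the growth factor. IGFBP4 had 7.31, 7.26 and 7.22 in BT-549, against 11.42, 12.06 and 11.10 in MDA-MB-231, or 19.2-fold lower (adjusted p = 2.54e-07). IGFBP7 was 9.92-fold lower and IGFBP6 4.26-fold. IGFBP5 had 12.02, 11.08 and 8.35 in BT-549, against 6.56, 6.62 and 6.62 in MDA-MB-231. Its BT-549 arrays spread by more than 3 log2 units, and the call (3.88, adjusted p = 0.0182) was lost without BT-549 array 1 (0.0737) or 2 (0.066). IGFBP2 was at least 1.76-fold higher.

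Single enzymes and transporters of metabolism differed strongly. The glucose transporter SLC2A3 had 6.45, 6.51 and 6.41 in BT-549, against 9.32, 9.96 and 9.77 in MDA-MB-231, at least 7.55-fold apart (adjusted p = 3.78e-06), and SLC2A1 was 4.94-fold lower. SLC7A5, a carrier of large amino acids, was 4.94-fold lower as well. PHGDH, the first enzyme of serine synthesis, had 9.70, 9.81 and 10.01 in BT-549, against 7.26, 6.94 and 7.02 in MDA-MB-231, or 6.80-fold higher (adjusted p = 0.00164). CBS, which makes cystathionine, was 7.38-fold higher, and the glycine-cleaving GLDC at least 2.27-fold. SHMT2, the mitochondrial serine hydroxymethyltransferase, was 2.05-fold lower.

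STC2, a stanniocalcin induced by stress in the endoplasmic reticulum, averaged 10.57 ± 0.29 in BT-549 and 6.64 ± 0.14 in MDA-MB-231 (3.93, adjusted p = 3.98e-07). SQLE, squalene epoxidase of cholesterol synthesis, had 10.84, 10.82 and 10.78 in BT-549, against 7.98, 8.31 and 8.24 in MDA-MB-231, or 6.22-fold higher (adjusted p = 6.31e-06). The 2 groups of SQLE were far apart and each tight.

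Redox genes were split. Of 25 tested NRF2 target and antioxidant genes, 6 were called higher and 6 lower, 3 and 4 without BT-549 array 2 or MDA-MB-231 array 3, and 3 and 6 without MDA-MB-231 array 1. HMOX1, haem oxygenase, had 11.16, 11.47 and 12.02 in BT-549, against 7.16, 7.93 and 8.26 in MDA-MB-231, or 13.6-fold higher (adjusted p = 0.00267). AKR1C3, an aldo-keto reductase, had 7.21, 7.05 and 6.56 in BT-549, against 9.14, 11 and 10.85 in MDA-MB-231, or 10.5-fold lower (adjusted p = 0.00116). GPX3, a glutathione peroxidase, was at background in BT-549 and at least 7.48-fold lower. CAT, catalase, was 1.83-fold lower (9.30 ± 0.35 in BT-549 against 10.17 ± 0.19 in MDA-MB-231).

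Of 18 glutathione transferases, 4 were called higher and 6 lower. GSTT1 was at least 4.35-fold higher and GSTP1, which was bright in both lines, 3.00-fold higher (12.71 ± 0.18 in BT-549 against 11.12 ± 0.23 in MDA-MB-231). MGST2 was at least 6.48-fold lower, at background in BT-549, MGST1 was 5.98-fold lower and GSTO1 was 2.75-fold lower.

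Of 76 tested subunits of oxidative phosphorylation, 17 were called higher in BT-549 and 10 lower (35.5%, against 30.4% of all genes), and 9 and 3 without BT-549 array 2. Without BT-549 array 1 they were 14 and 4, without array 3 10 and 7, and without MDA-MB-231 array 2 or 3 11 and 4. NDUFB9, of complex I, was 3.20-fold higher (12.22 ± 0.19 in BT-549 against 10.54 ± 0.36 in MDA-MB-231), and UQCRB, of complex III, 2.49-fold, with other probes of UQCRB at 0.15 and -0.09. Both lie on chromosome 8. Of 67 ribosomal protein genes 8 were higher and 1 lower, 5 higher without BT-549 array 2 or MDA-MB-231 array 2, and 13 without MDA-MB-231 array 1. RPL7, on chromosome 8, was 2.12-fold higher and RPS13, on chromosome 11, 1.68-fold lower.

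Called genes were unevenly spread over the chromosomes. On chromosome 8, 37.2% of 438 tested genes were called higher in BT-549 and 5.94% lower, against 14.9% and 15.5% over all genes. Chromosome 9 (29.3% and 6.15%), X (27.8% and 9.20%) and 1 (22.1% and 9.42%) leaned the same way. Chromosomes 2 (6.99% and 27.4%), 11 (6.44% and 27.4%), 10 (8.80% and 27.9%), 4 (9.05% and 23.7%) and 12 (9.44% and 22.5%) leaned the other way. On the everolimus arrays the shares were 42.9% and 6.16% on chromosome 8 and 37.7% and 7.38% on chromosome 9. The median difference ran from -0.19 on chromosome 2 to 0.25 on chromosome 8. The longest run of neighbouring tested genes called one way was 9 genes higher on chromosome 9, from ZCCHC7 to DCAF10, followed by 8 on chromosome 8, from MSC to TMEM70, whose other probe gave -0.24. No test of the shares was made.

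**Figure D5:**
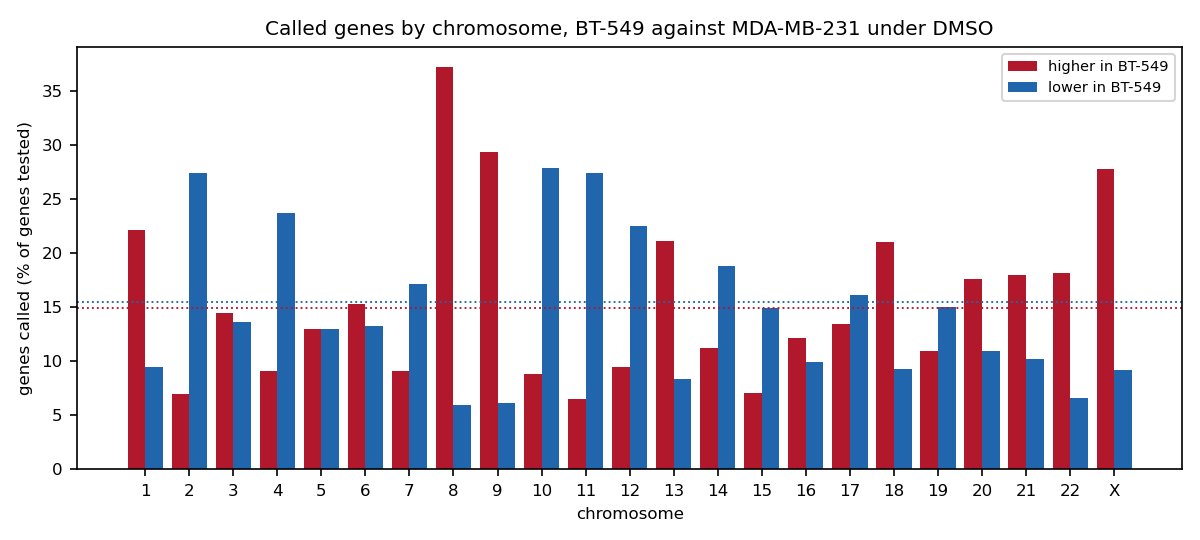
Share of tested genes (%) called higher (red) or lower (blue) in BT-549 under DMSO on each chromosome; dotted lines mark the shares over all tested genes, 14.9% higher and 15.5% lower. Chromosomes 8, 9, X and 1 stand out upward for genes higher in BT-549, and 2, 10, 11, 4 and 12 for genes lower.

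Called genes above the floor in MDA-MB-231 alone more often had promoters with few CpG pairs. Their median was 24 CpG, against 27 for called genes above the floor in BT-549 alone and 28 for the tested genes. Where a gene had several windows, the window with most CpG was counted. Under 10 CpG in the 300-base window were found for 67 of 245 called genes above the floor in MDA-MB-231 alone (27.3%), for 25 of 211 above it in BT-549 alone (11.8%), and for 777 of 9426 tested genes (8.24%). Where such genes also differed at least 4-fold, the shares were 18 of 31 for MDA-MB-231 (58.1%) and 5 of 41 for BT-549 (12.2%). CpG-poor promoters are common among tissue-restricted genes. The limit of 10 was chosen after the values were seen, and the shares are given without a test.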

How the data were processed

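Total RNA of 12 samples was read on Illumina bead arrays after labelling of amplified RNA, per the labels' protocols. The deposited table holds log2 signals of 47230 probes, and the authors' software, background correction and normalization were not given in the sources used here. From the values, the log2 signals run from 6.24 to 14.56 with nearly equal array distributions. The 12 columns that matched no sample label were not used. Of the probes, 30113 carry 1 gene symbol in the platform annotation, 8 carry several and 17109 are not listed there.

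The background peak lay at 6.55 with an SD of 0.0724, and the floor was set 3 SDs above it, at 6.77. A probe was kept if it exceeded the floor on at least 3 arrays, and each gene was represented by its probe of highest mean. Group means over all 12 arrays were fitted with limma 3.58.1 in R 4.3.3 (8 residual degrees of freedom, prior 2.89), with Benjamini-Hochberg adjustment over the 11764 genes and calls at an adjusted p under 0.05. The fit was tested on simulated data. Tables, promoter counts and figures were made with Python 3.11.15, pandas 2.3.3 and matplotlib 3.10.9. Precision is limited by the 3 arrays of each group.

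The comparison, gene lists and alternatives were chosen with earlier results of these data known. Genes named are those of the loci and receptor lists, the 15 largest called differences each way without overlap, and up to 8 called and up to 3 uncalled members of a list. Locus neighbours, run ends, MX1 and genes named only for their spread were chosen after their values were seen. Same-numbered arrays of the 2 lines under DMSO had deviations that correlated at r = 0.185, 0.0427 and 0.131. Array 1 of either line against arrays 2 and 3 of the other gave r of -0.176 to -0.0491. Arrays 2 and 3 crossed gave 0.0288 and 0.13. Replicate numbers were not taken as pairs in the main fit, and a shift shared by the replicate 1 arrays was not tested. Under everolimus r of same-numbered arrays was 0.233, 0.175 and 0.247, each over 0.1. The numbers may pair those samples, so values with the number as a block are given too. Some genes are not reported here. The alternatives were the arrays and replicate block in the fit, the floor, the background, the scaling, the prior, the probe rule, a test against a 1.5-fold change and arrays left out.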

Additional observations from a re-analysis of the deposited data

Results flagged for a closer look

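For 7 genes named above, the difference between BT-549 and MDA-MB-231 under everolimus differed from that under DMSO by limma's interaction term, at adjusted p-values just under the threshold (0.0148 to 0.0333 with the replicate number as a block). For COL1A2 the line difference was 1.23 under everolimus and 3.78 under DMSO, a change of -2.55 (adjusted p = 0.0448). For P4HA1 it was -0.15 under everolimus and 1.41 under DMSO, a change of -1.57 (adjusted p = 0.0448), and for THBS2 it was 0.95 and 1.83, a change of -0.89 (adjusted p = 0.0482). These 3 genes of collagen and matrix stood closer together in the lines under everolimus. TFPI had -0.85 under everolimus and 0.50 under DMSO, so that its direction turned (change -1.35, adjusted p = 0.0257). CAT had -2.14 under everolimus and -0.87 under DMSO (change -1.27, adjusted p = 0.0499). UQCRB had 0.38 under everolimus and 1.32 under DMSO (change -0.94, adjusted p = 0.0432), and ZCCHC7 had 1.42 and 0.48 (change 0.94, adjusted p = 0.0392). BT-549 everolimus array 1, the array that deviated most from its group mean, enters each of these values. The causes were not tested.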

How the results depend on the processing

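Of 227 called genes named above, 217 stayed called under every alternative in which they were tested, other than the test against a 1.5-fold change, which called 163 of the 227. Leaving out 1 of the 12 arrays gave 2547 to 4400 calls under DMSO (1264 to 2157 higher, 1283 to 2243 lower, 1033 to 1249 at least 2-fold) and 3114 to 4582 under everolimus. Without the 4 replicate 1 arrays, 5311 genes were called (2513 higher and 2798 lower in BT-549) and the medians were 1.85 for matrix and -1.81 for class II genes. A test against a 1.5-fold change called 695 genes (364 higher, 331 lower, 690 at least 2-fold) under DMSO and 831 under everolimus. With the background peak subtracted, 2496 genes were called and at least 2-fold apart, and the medians were 3.31 for matrix, 2.90 for mesenchymal, -1.75 for ERK output, 4.28 for HOXB and -3.78 for class II genes. With no floor they were 0.48 for mesenchymal, 1.32 for HOXB and -0.81 for class II genes. The matrix median was 1.95 with a stricter floor, 2.06 on the 6 DMSO arrays alone, with or without a replicate block, and 1.5 to 1.82 with 1 array left out. The mean over probes gave 1.29 for matrix and -1.77 for class II genes, whose median ran from -1.79 to -1.60 with 1 array left out.

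In the fit that holds replicate number as a block, 4254 genes were called under DMSO (3521 of them among the 3576) and 4870 under everolimus, against 4013 and 3273 on the 6 arrays of each contrast alone. Under the block no named gene lost its call, while CCL2, IFIT2, KRT18, MT1E, MYC and SMTN gained one on 12 and on 6 arrays (adjusted p from 0.00297 to 0.0439), and ERBB2 on 6 arrays alone (0.0471). IFIT2, MT1E and SMTN were also called on the 6 arrays without the block, as were CDKN1A (0.0462), HLA-B (0.0127), IL6 (0.0486) and PLAU (0.039). The line difference under everolimus differed from that under DMSO for 305 genes under the block, an alternative chosen after seeing the data, against 75.

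Signs turned for uncalled genes. FKBP1A was -0.48 as a mean over probes (adjusted p = 0.00526) and -0.17 to 0.27 with 1 array left out (-0.17 without BT-549 array 3, -0.03 without MDA-MB-231 array 1). CD44 was 0.10 as a mean over probes and -0.25 to 0.0883 with 1 array left out (0.01 without MDA-MB-231 array 2, 0.0883 without MDA-MB-231 array 3, 0.0867 without BT-549 array 1). HACD4 was 0.14 without MDA-MB-231 array 3 and -0.28 to 0.14 over all arrays left out, and SNAI2 was -0.01 without the 4 replicate 1 arrays. CBX3 (-0.35, adjusted p = 0.0976) and TFPI (0.28, adjusted p = 0.127) lost their calls as means over probes. The cause of these changes was not tested. Dim genes near the floor limit what these arrays show.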
